A study of Homo sapiens with 6 samples.

Results

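The MYC, MAX and MXD network is a family of basic helix-loop-helix leucine zipper transcription factors. The 10 members described here were taken by symbol from the deposited table of 20289 genes: MYC, MYCN and MYCL, their partner MAX, the repressors MXD1, MXI1, MXD3, MXD4 and MNT, and the MAX-like factor MLX. RNA was measured in 3 libraries labelled LINC00665, recorded as T24 cells given a pcDNA3.1 plasmid that carries the long non-coding RNA LINC00665. The 3 libraries labelled Vector are recorded as T24 cells given the vector plasmid. T24 is an established human bladder cancer line, and both labels share the same medium with serum and lipofection reagent. The study asked how LINC00665 alters the transcriptome with lymph node metastasis of bladder cancer in view, and its labels speak of 3 independent experiments.

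MYC proteins bind DNA only as a dimer with MAX, at the E-box CACGTG, and recruit histone acetyltransferases to genes of growth and metabolism. MXD proteins and MNT compete for MAX at the same sites and bring the SIN3 corepressor with its histone deacetylases. MYC is a driver of proliferation in many carcinomas, bladder cancer among them, while MXD1 is known from differentiating epithelium. MLX pairs with MondoA and ChREBP, which respond to glucose, and also with some MXD proteins and MNT.

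The libraries held 19114096 to 22725687 expected counts under the LINC00665 label and 17289788 to 20023417 under the Vector label. A check of sample identity found 3 libraries out of 6 at odds with the labelled cell line, so the groups are called by their labels throughout, and leaving those libraries out would leave no comparison. LINC00665 itself was not analysed here. Of 15 urothelial and epithelial markers, 14 averaged at least 1 CPM (counts scaled to library size with TMM, the trimmed mean of M-values) under the LINC00665 label and 5 under the Vector label, with sums of 10400 to 12500 CPM under the LINC00665 label and 1020 to 3190 CPM under the Vector label. GRHL2 and UPK3A had 0 counts under the Vector label. The 9 kidney tubule markers summed to 33.3 to 35.8 CPM under the LINC00665 label, where CDH16 had 0 counts, and to 381 to 544 CPM under the Vector label. LHX1 went the other way, at 18.5 CPM on average under the LINC00665 label and 0.337 CPM under the Vector label, as did LRP2, at 0.373 CPM under LINC00665 and 0.0185 CPM under Vector. Fibroblast markers (8) summed to 243 to 271 CPM under the LINC00665 label and 1.76 to 2.84 CPM under the Vector label, where DCN, PDGFRA and FAP had 0 counts. Endothelial markers (5) summed to 11.5 to 13.4 CPM under the LINC00665 label and 0.28 to 1.03 CPM under the Vector label, with VWF, KDR and TEK at 0 counts in the Vector libraries. Leukocyte markers (6) summed to 25.2 to 37.8 CPM under the LINC00665 label and 10.8 to 17.1 CPM under the Vector label. PTPRC was at 0 counts under the LINC00665 label and CD3E under the Vector label. The part of cell identity in the differences below was not tested, and line and plasmid cannot be told apart in this design.

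Of the 10 members, MYC, MYCL, MAX and MXD1 were higher in the libraries labelled LINC00665, and MXD4 and MNT were lower. MXI1, MXD3 and MLX did not pass the test, and MYCN was too low to be tested. The 9 tested members passed the filter on low counts on the level of either label alone. A gene was called where the Benjamini-Hochberg adjusted p of the quasi-likelihood test in edgeR was at most 0.05, which gave 4 members higher and 2 lower of 9. Over all 13552 genes tested, 34.2% were higher and 29.3% lower, so the share of members called (6 of 9) was near the 63.5% called among all genes. All 6 called members also had an absolute log2 fold change of 1 or more, a bar that 26.1% of all tested genes passed as higher and 15.9% as lower. In bulk RNA a change in the level per cell and a change in which cells were present cannot be told apart. The 3 libraries of one label lay wholly above those of the other for 7 of the 9 tested members, against 70.2% of all tested genes: 5 members lay higher (37.9% of all tested genes) and 2 lower (32.3%). The median log2 fold change was 0.44 over the members and 0.03 over all tested genes, and the median absolute log2 fold change was 1.35 over the members and 0.82 over all tested genes. For these 7 members, MYC, MYCL, MAX, MXD1, MXD4, MNT and MLX, the two-sided exact permutation test over libraries gave p = 0.1, the floor for groups of 3.

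**Figure D1:**
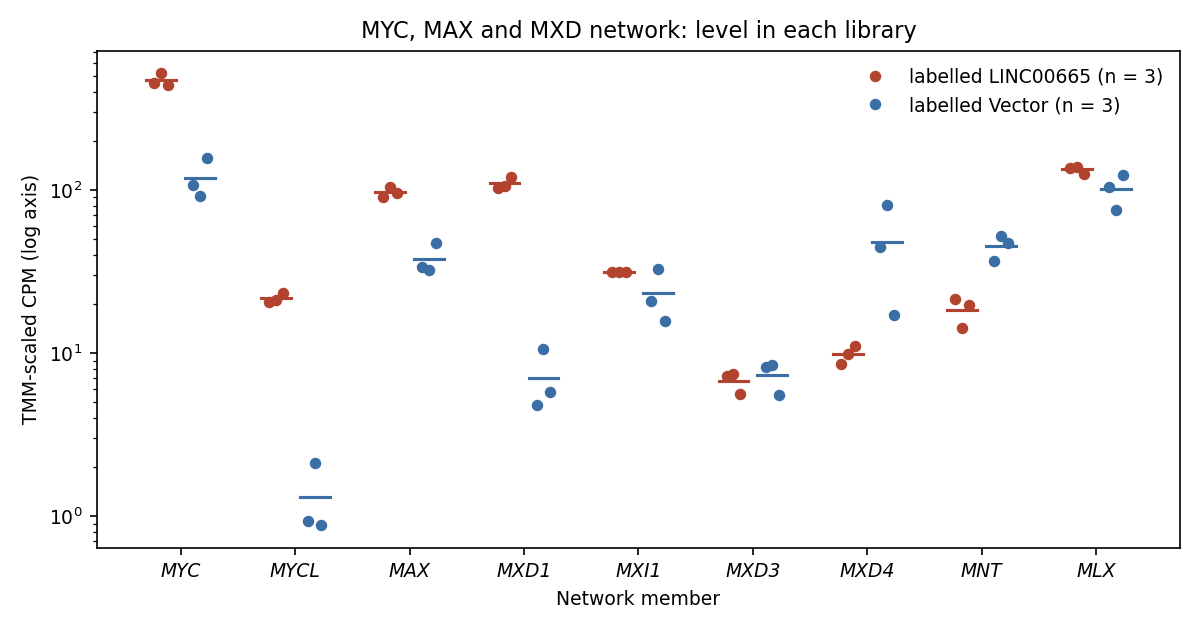
TMM-scaled CPM on a log axis of the 9 tested members in each library (points) with the mean of each label (lines), the 3 libraries labelled LINC00665 left of the 3 labelled Vector. MYC, MYCL, MAX, MXD1 and MLX lie higher and MXD4 and MNT lower under the LINC00665 label without overlap, although MLX did not pass the test. MYCN, at 0 counts in 4 libraries, cannot be shown on a log axis.

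MYC and MAX bind the palindrome CACGTG, which reads the same on both strands, and this motif was looked up in RefSeq promoter windows of GRCh38.p14 (250 bases before to 50 after each start). It occurs in 3 of the members' 12 windows (25.0%), against 2548 of all 35116 windows (7.26%), and in 8.77% of all genes with a window. Of the 9 members with a window (all but MYC), MXD4, MNT and MLX hold it, once each, and MYCN, MYCL, MAX, MXD1, MXD3 and MXI1 do not. The members called lower, MXD4 and MNT, are both among the 3 that hold it, and none of the members called higher with a window is. The share holding the motif among all genes called lower or higher was not computed. No link between motif and direction can be read from these few genes. The stretches around the motif are shown because the network's own motif lies there in promoters of its members. Each is written 5′ to 3′ on the gene's strand, lies outside annotated exons, and has the motif in capitals. A match of letters describes the sequence and does not show binding in these cells.
MXD4 (chr4:2262295-2262359, minus strand, motif starting 238 bases before the start): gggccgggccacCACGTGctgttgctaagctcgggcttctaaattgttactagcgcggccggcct
MNT (chr17:2401188-2401310, minus strand, motif starting 193 bases before the start): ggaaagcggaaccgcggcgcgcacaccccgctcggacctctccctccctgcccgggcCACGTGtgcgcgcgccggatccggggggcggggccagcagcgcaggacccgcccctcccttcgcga
MLX (chr17:42566990-42567067, plus strand, motif starting 50 bases before the start): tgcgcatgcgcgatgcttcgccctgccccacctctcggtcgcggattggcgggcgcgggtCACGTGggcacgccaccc

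MYC had 454, 519 and 442 CPM in the 3 libraries labelled LINC00665, against 107, 91.6 and 158 CPM in those labelled Vector. Every library of the first label stood above every library of the second, and the Vector libraries were spread more widely, with a coefficient of variation of 29.2% against 8.78% under the LINC00665 label. The log2 fold change was 1.99 (SE 0.22, edgeR adjusted p = 9.4e-05), a ratio of 3.98. MYC lies on the long arm of chromosome 8. No other annotated gene of GENCODE v29 shares exonic sequence with it, whereas each of the other 9 members has such an overlap.

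MYCL, the paralog first found amplified in small cell lung cancer, was low under the Vector label. It had 20.5, 21.2 and 23.2 CPM in the libraries labelled LINC00665, against 0.932, 2.11 and 0.88 CPM in those labelled Vector. The Vector values rest on 20, 38 and 17 counts, for which counting error alone gives a coefficient of variation of 20.0%, against 53.2% observed. No library of 1 label came near those of the other, and the log2 fold change was 4.06 (SE 0.34, edgeR adjusted p = 1.9e-05). On log2(FPKM + 1), which understates the change of low genes, it was 2.34. MYCL lies on chromosome 1 (chr1:39895426-39902256, minus strand, GRCh38), where an antisense gene overlaps its exons, and whether counting used the strand is not stated in the sources.

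MYCN (chr2:15940564-15947007, plus strand), the paralog known from neuroblastoma, had 0, 9 and 4 counts in the libraries labelled LINC00665 and 0 in each library labelled Vector. Set against a floor of 3 counts over the Vector group, its 13 counts under the LINC00665 label give a ratio of 3.85. That ratio leaves out counting error in the 13 counts, and 1 of the 3 libraries labelled LINC00665 was itself at 0. The two-sided exact permutation p was 0.4, and its exons overlap its antisense partner MYCNOS, whose reads are separated from its own only if counting used the strand.

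MAX, the obligate partner of MYC and of the MXD repressors, had 90, 104 and 95.7 CPM in the libraries labelled LINC00665, against 33.7, 32.3 and 47.4 CPM in those labelled Vector. The labels did not overlap. Its log2 fold change was 1.35 (SE 0.18, edgeR adjusted p = 0.00031), a ratio of 2.55. MAX (chr14:65006174-65102695, minus strand) has an antisense neighbour that overlaps its exons. The MAX counts are not whole numbers in any library, so its level may include reads divided between overlapping genes.

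Among the repressors, MXD1 was the only member called higher. It had 103, 106 and 120 CPM in the libraries labelled LINC00665, against 4.8, 10.6 and 5.74 CPM in those labelled Vector. The highest Vector library lay far below the lowest library labelled LINC00665. The log2 fold change was 3.96 (SE 0.30, edgeR adjusted p = 1.3e-05), a ratio of 15.6. On log2(FPKM + 1) it was 3.14. MXD1 (chr2:69897688-69942945, plus strand) shares exonic sequence on the same strand with SNRNP27, a splicing factor gene, though its counts were whole in all 6 libraries.

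MXD4 (chr4:2247432-2262294, minus strand), a repressor of the same family, was called lower. It had 8.6, 9.93 and 11 CPM in the libraries labelled LINC00665, against 44.9, 81.1 and 17 CPM in those labelled Vector. The labels did not overlap, but the Vector libraries spanned 4.77-fold, more than for any other tested member. The log2 fold change was -2.27 (SE 0.49, edgeR adjusted p = 0.0037). It stood at -1.66 (SE 0.36, adjusted p = 0.004) without Vector 2, the highest library, and at -2.68 (SE 0.25, adjusted p = 4.2e-05) without Vector 3, the lowest.

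MNT (chr17:2384060-2401118, minus strand), a broadly expressed repressor that counters MYC in proliferating cells, had 21.5, 14.3 and 19.6 CPM in the libraries labelled LINC00665, against 36.6, 51.9 and 47.2 CPM in those labelled Vector. All 3 libraries labelled LINC00665 were lower. Like MXD4, MNT holds the E-box shown above. Its log2 fold change was -1.29 (SE 0.21, edgeR adjusted p = 0.00082), 2.44-fold lower. The coefficient of variation was 20.1% under the LINC00665 label and 17.3% under the Vector label.

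MXI1 (chr10:110207605-110287365, plus strand), the repressor also called MXD2, had 31.5 CPM in each of the 3 libraries labelled LINC00665, against 21, 33 and 15.7 CPM in those labelled Vector. The labels overlapped, and the log2 fold change was 0.44 (SE 0.26, edgeR adjusted p = 0.16). It reached 0.78 (SE 0.17, adjusted p = 0.0038) without Vector 2, so that library decides whether MXI1 is called. The spread under the LINC00665 label, a coefficient of variation of 0.0633%, was smaller than the 4.01% that counting error alone gives at this depth.

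MXD3 (chr5:177301461-177312757, minus strand), a repressor known from S phase, had 7.24, 7.42 and 5.65 CPM in the libraries labelled LINC00665, against 8.17, 8.43 and 5.55 CPM in those labelled Vector. The labels overlapped (log2 fold change -0.12, SE 0.24, edgeR adjusted p = 0.67). Its counts were not whole in any library, and its exons overlap those of RAB24 and PRELID1, so its level is uncertain.

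MLX (chr17:42567068-42573239, plus strand), the partner of MondoA, had 136, 139 and 126 CPM in the libraries labelled LINC00665, against 104, 75.9 and 124 CPM in those labelled Vector. The labels did not overlap, but by a margin of only 126 against 124 CPM, and the log2 fold change was 0.40 (SE 0.19, edgeR adjusted p = 0.097). It reached 0.57 (SE 0.17, adjusted p = 0.017) without Vector 3, so that library decides whether MLX is called. MLX also holds the E-box. MLX counts were not whole in any library, and its exons overlap those of PSMC3IP on the other strand.

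**Figure D2:**
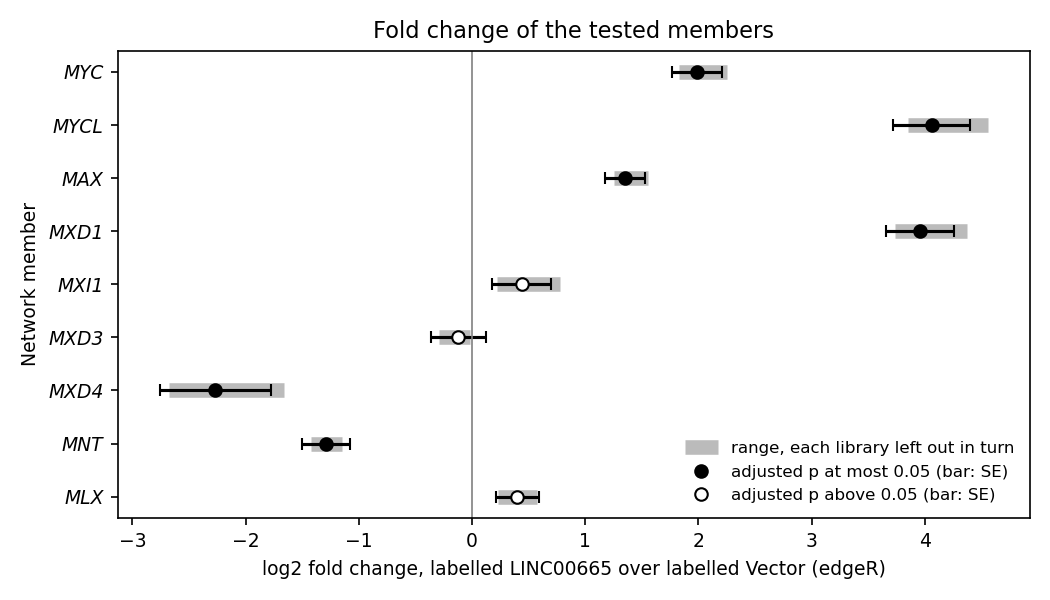
Log2 fold change (labelled LINC00665 over labelled Vector, edgeR) of the 9 tested members on the horizontal axis, with SE bars, filled where the adjusted p was at most 0.05; grey bars give the range with each library left out in turn. The 6 called members stay on their side of 0 throughout, and the grey bar of MXD4 runs from -2.68 to -1.66.

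The libraries labelled Vector differed among themselves in which members stood highest. In Vector 2, 6 members (MYCL, MXD1, MXD3, MXD4, MNT and MXI1) were at their highest for that label, and 3 (MYC, MAX and MLX) were at their lowest. In Vector 3 the same 3, MYC, MAX and MLX, were at their highest, and MYCL, MXD3, MXD4 and MXI1 were at their lowest. Over all tested genes, 39.2% were highest in Vector 2 and 36.6% in Vector 3. Vector 2 was also the shallowest library (17289788 counts), and its summed urothelial and epithelial markers were the lowest of the label (1020 CPM, against 1330 in Vector 1 and 3190 in Vector 3), mostly from KRT8 and KRT18. These 3 libraries give an order and no test, and the part of depth or cell identity in it was not tested.

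Levels were compared between members on FPKM, the deposited values scaled for gene length and library size. Under the LINC00665 label MYC led with 201 ± 12 FPKM (SD, n = 3), followed by MAX (66.2 ± 4.38), MLX (54.5 ± 1.8), MXD1 (19.4 ± 2.34) and MXI1 (15.7 ± 1.15), and none of these neighbours overlapped. MYCL (6.22 ± 0.523) and MXD3 (5.91 ± 0.585) overlapped each other, as did MNT (4.02 ± 0.907) and MXD4 (2.5 ± 0.492), and MYCN came last at 0.0867 FPKM. Under the Vector label MYC (55.4 ± 15.8 FPKM) and MLX (46.2 ± 11.5) overlapped, MAX followed at 26.3 ± 5.49, and MXD4 (13.2 ± 8.59), MXI1 (12.3 ± 4.04) and MNT (10.3 ± 1.67) overlapped in turn. MXD3 (6.41 ± 1.44), MXD1 (1.34 ± 0.569) and MYCL (0.433 ± 0.214) came next without overlap, and MYCN was listed at 0. MXD1 thus ranked 4th under the LINC00665 label and 8th under the Vector label, while MXD4 ranked 9th under the LINC00665 label and 4th under the Vector label.

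The make-up of the network, as a share of the members' summed FPKM, differed accordingly. MYC held 53.4, 54.9 and 52.3% of the sum in the libraries labelled LINC00665, against 31.2, 26.5 and 37.8% in those labelled Vector. The 5 repressors MXD1, MXD3, MXD4, MXI1 and MNT summed to 46.3, 44.4 and 51.7 FPKM under the LINC00665 label and to 40.7, 59.8 and 30.2 FPKM under the Vector label, so the totals of the labels overlapped. Within the total, the share of MXD3 overlapped between labels and those of the other 4 did not. MXD1 made up 38.8 to 42.7% of that total under the LINC00665 label and 2.28 to 3.64% under the Vector label. MXD4 made up 4.53 to 5.9% under the LINC00665 label and 15.4 to 36.5% under the Vector label. MNT made up 6.79 to 10.3% under the LINC00665 label and 19.7 to 35.3% under the Vector label. MYC FPKM over the repressor total was 4.21, 4.85 and 3.75 in the libraries labelled LINC00665 and 1.24, 0.712 and 2.42 in those labelled Vector. MAX FPKM over the sum of MYC, MYCN, MYCL and the repressors overlapped between the labels, at 0.251 to 0.267 for LINC00665 and 0.229 to 0.315 for Vector. These ratios compare RNA levels only and are given with no test.

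**Figure D3:**
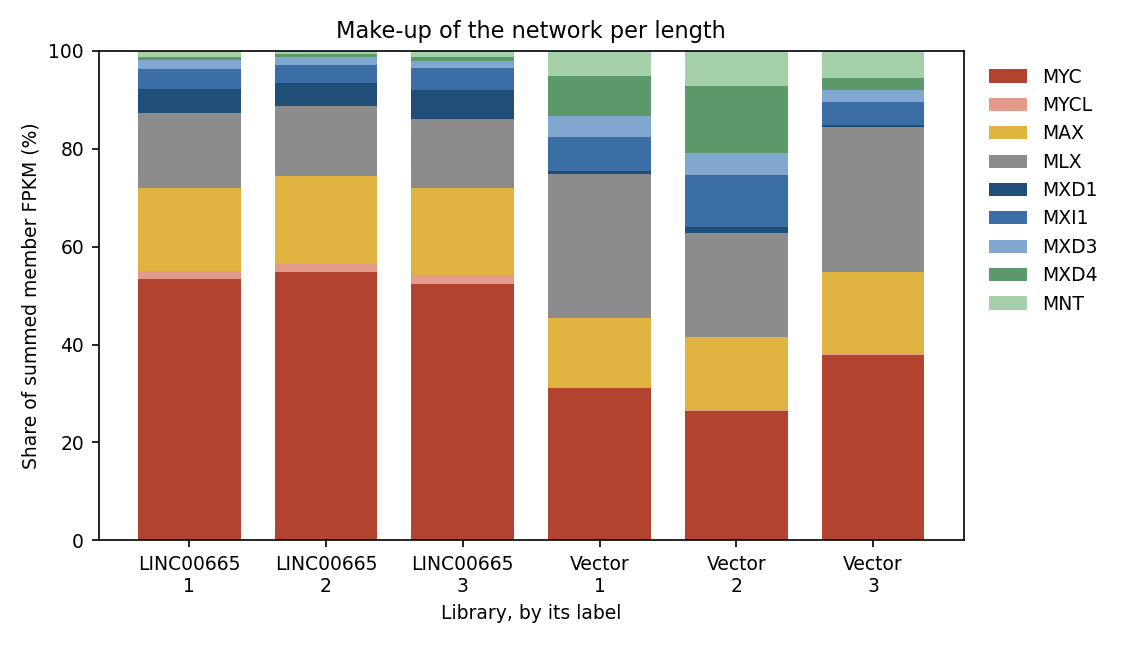
Share of each member in the summed FPKM of the network (vertical axis, percent), one stacked bar per library, the 3 labelled LINC00665 left of the 3 labelled Vector; MYCN, at most 0.046%, is left out. MYC takes 52.3 to 54.9% of the bars on the left and 26.5 to 37.8% of those on the right, and the band of MXD1 is visible mainly on the left, those of MXD4 and MNT mainly on the right.

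Among genes that MYC is known to activate, the share called lower was near that of all tested genes, and the share called higher was smaller. Of 32 such genes, all tested, 4 were higher (12.5%), 11 lower (34.4%) and 17 not called (background 34.2% and 29.3%). Their median log2 fold change was -0.40 against 0.03 over all tested genes. With a mean of 1 CPM asked for under both labels, 3 of the 31 kept were higher and 8 lower, against 3229 and 3243 of all 11285 genes. Where calls among the 32 also needed an absolute log2 fold change of 1 or more, 3 were higher and 4 lower. The same bar left 26.1% of all tested genes higher and 15.9% lower. Named by the smallest p, TERT, the telomerase reverse transcriptase, averaged 2.81 ± 0.156 CPM under the LINC00665 label and 18.4 ± 5.17 CPM under the Vector label (SD, n = 3 each; log2 fold change -2.71, SE 0.25, edgeR adjusted p = 4e-05). ODC1, the rate-limiting enzyme of polyamine synthesis and a classical MYC target, had 144, 159 and 169 CPM in the libraries labelled LINC00665, against 379, 482 and 386 CPM in those labelled Vector. Its labels did not overlap (log2 fold change -1.40, SE 0.15, edgeR adjusted p = 9.4e-05). NCL, the nucleolar protein nucleolin, had 362, 347 and 351 CPM in the libraries labelled LINC00665, against 880, 727 and 947 CPM in those labelled Vector (log2 fold change -1.27, SE 0.14, edgeR adjusted p = 0.00011). CCND2, cyclin D2, summed to 84.1 counts over the libraries labelled LINC00665 and to 1 over those labelled Vector. Scaled to total counts, the ratio was 74.6 (95% counting interval 13 to 2980). CCND2 passed the filter through the LINC00665 label alone, which fixes its direction. The other 3 called higher, chosen for naming after their values were seen, were SHMT2, TFAP4 and HK2, of serine metabolism, transcription and glycolysis, and HK2 (log2 fold change 0.48) was not called without LINC00665 1, LINC00665 2, LINC00665 3 or Vector 1. Without Vector 3 the counts were 7 higher and 12 lower, beside 4980 and 4190 of all 13846 genes tested. Without LINC00665 1 they were 3 higher and 7 lower, beside 4183 and 3275 of 13718.

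Of the 27 activated targets with a promoter window, 15 hold CACGTG, a share of 55.6% against 8.77% of all genes with a window. The list gathers genes known as MYC targets, so this share describes how it was made. ODC1 is shown as the example because it carries the motif on both sides of its start and was called lower while MYC was called higher. The stretch before the start is written 5′ to 3′ on the minus strand, with the motif in capitals.
ODC1 (chr2:10448013-10448101, minus strand, motif starting 29 bases before the start): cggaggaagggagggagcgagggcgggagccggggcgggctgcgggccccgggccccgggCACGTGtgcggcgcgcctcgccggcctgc

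Of 8 genes that MYC is known to repress, all tested, 7 were higher under the LINC00665 label and 0 lower (background 34.2% and 29.3%), with a median log2 fold change of 2.67. None was lower at an unadjusted p of 0.05 in edgeR, nor with DESeq2 or limma-voom. GADD45A, a growth arrest gene of the DNA damage response, had 311, 385 and 350 CPM in the libraries labelled LINC00665, against 38.2, 25.4 and 58.4 CPM in those labelled Vector (log2 fold change 3.10, SE 0.30, edgeR adjusted p = 4.5e-05). CDKN2B, the cyclin-dependent kinase inhibitor p15, had 49.1, 44.7 and 53.8 CPM in the libraries labelled LINC00665, against 6.67, 10.3 and 12.3 CPM in those labelled Vector (log2 fold change 2.34, SE 0.24, edgeR adjusted p = 5.9e-05). NDRG2, a differentiation-linked gene, summed to 4211 counts over the libraries labelled LINC00665 and to 2 over those labelled Vector. Scaled to total counts, the ratio was 1870 (95% counting interval 517 to 15400). CDKN1C, the inhibitor p57, averaged 42.4 ± 12.1 CPM under the LINC00665 label and 0.181 ± 0.114 CPM under the Vector label (SD, n = 3 each). NDRG2 and CDKN1C passed the filter on low counts through the LINC00665 label alone, which fixes their direction. With a mean of 1 CPM asked for under both labels, which leaves these genes out, 5 of the 6 kept were higher and 0 lower. Of all 11285 genes kept by that filter, 3229 were higher and 3243 lower. CDKN1A, the inhibitor p21, chosen after its values were seen, had 818, 991 and 767 CPM in the libraries labelled LINC00665, against 242, 259 and 156 CPM in those labelled Vector, while CDKN1B, p27, was not called (log2 fold change -0.10, edgeR adjusted p = 0.82). The call of THBS1 was lost without Vector 1, which left 6 higher.

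**Figure D4:**
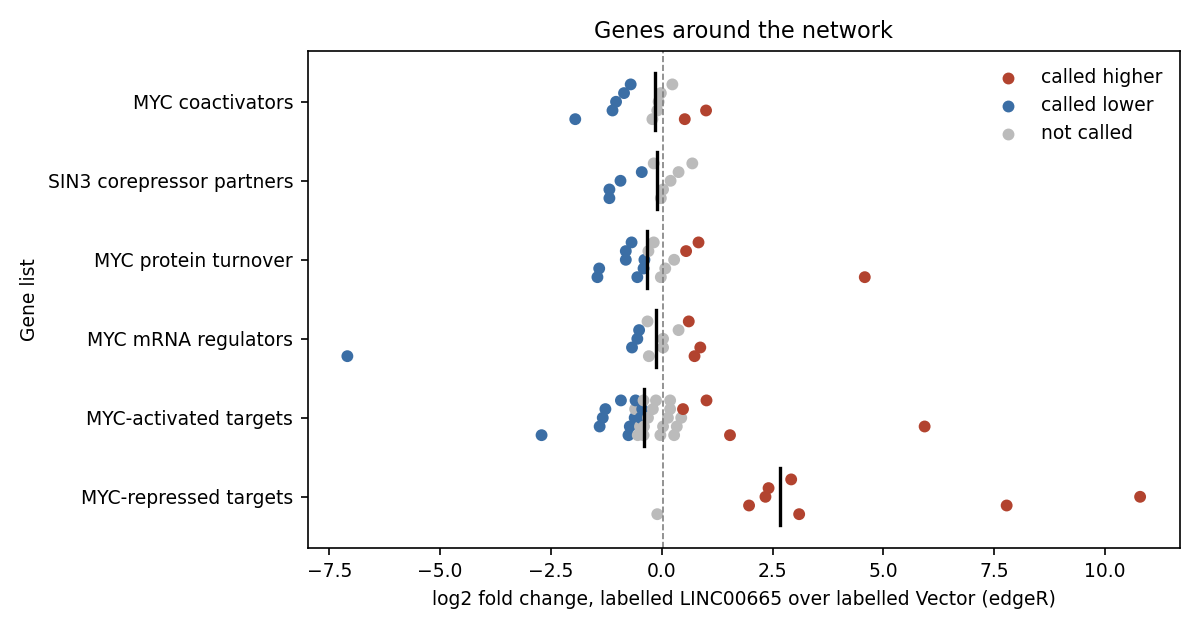
Log2 fold change (labelled LINC00665 over labelled Vector, edgeR, horizontal axis) of each tested gene in 6 lists around the network, coloured by call, with the list median (black line) and the median of all tested genes (dashed line, 0.03). The MYC-activated targets centre at -0.40 and the MYC-repressed targets at 2.67; the fitted values of NDRG2 and CCND2 rest on 2 and 1 counts under the Vector label.

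Of 12 coactivators through which MYC acts, 2 were higher and 5 lower (background 34.2% and 29.3%), with a median log2 fold change of -0.15. EP300, a histone acetyltransferase, had 85.4, 60.5 and 79.5 CPM in the libraries labelled LINC00665, against 265, 348 and 256 CPM in those labelled Vector (log2 fold change -1.95, SE 0.19, edgeR adjusted p = 5.6e-05). EP400, TRRAP and RUVBL2, of the TIP60 chromatin complex, fell by 1.03, 0.85 and 0.70 on the log2 scale. ZBTB17, named after its values were seen, was called higher (log2 fold change 1.00) and encodes MIZ1, a factor through which MYC represses. The number of coactivators called higher was 1 without LINC00665 1 or without LINC00665 3.

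Of 10 genes of the SIN3 corepressor that MXD proteins recruit, 0 were higher and 4 lower in edgeR (background 34.2% and 29.3%), with a median log2 fold change of -0.10. None was higher at an unadjusted p of 0.05 either, nor with DESeq2 or limma-voom, and 1 was higher without Vector 2. SIN3A, the scaffold, had 75.1, 68.4 and 66.7 CPM in the libraries labelled LINC00665, against 170, 153 and 151 CPM in those labelled Vector (log2 fold change -1.18, SE 0.14, edgeR adjusted p = 0.00012). HDAC1, a deacetylase, and NCOR1, a corepressor, fell by 0.93 and 1.18 on the log2 scale. SAP18 (log2 fold change -0.45) was not called without LINC00665 1, LINC00665 3 or Vector 1. SIN3B and HDAC2 were not called, at log2 fold changes of 0.03 and 0.20.

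Of 16 genes that set the stability of MYC protein, 3 were higher and 8 lower (background 34.2% and 29.3%), with a median log2 fold change of -0.34. PIM1, a kinase known to phosphorylate and stabilise MYC, had 316, 368 and 296 CPM in the libraries labelled LINC00665, against 9.74, 8.33 and 22.9 CPM in those labelled Vector. The labels were far apart (log2 fold change 4.58, SE 0.40, edgeR adjusted p = 2.7e-05). CIP2A, which shields MYC from the phosphatase PP2A, had 9.21, 7.93 and 8.78 CPM in the libraries labelled LINC00665, against 26.7, 21.6 and 22.4 CPM in those labelled Vector (log2 fold change -1.45, SE 0.17, edgeR adjusted p = 0.00014). USP7, a deubiquitinase, and PPP2R5A, a PP2A subunit, each fell by 0.81 on the log2 scale. FBXW7, the ubiquitin ligase subunit that targets MYC, named after its values were seen, averaged 18.6 CPM under the LINC00665 label and 10.5 CPM under the Vector label (log2 fold change 0.83, SE 0.21, edgeR adjusted p = 0.0079), and lost its call on FPKM.

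Of 12 genes known to act on MYC transcription or mRNA, 3 were higher and 4 lower, or 25.0% and 33.3%, near the 34.2% and 29.3% of all tested genes, with a median log2 fold change of -0.13. IGF2BP1, an RNA-binding protein that protects MYC mRNA, had 0.419, 0.368 and 0.646 CPM in the libraries labelled LINC00665, against 47.9, 90.1 and 59 CPM in those labelled Vector. It passed the filter on low counts through the Vector label alone, which fixes its direction. With the filter that asks for a mean of 1 CPM under both labels, which leaves it out, 4 of the 11 genes kept were higher and 3 lower. Of all 11285 genes kept by that filter, 3229 were higher and 3243 lower. The IGF2BP1 paralogs IGF2BP2 and IGF2BP3 were higher under the LINC00665 label, with log2 fold changes of 0.87 and 0.74 (SE 0.20 and 0.18). HNRNPK, which binds the MYC promoter, fell by 0.51 on the log2 scale.

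Of the 3 parallel factors, MGA was called lower, MLXIP was not called and MLXIPL was too low to pass the filter. Without Vector 2, MLXIP and MLXIPL were called higher, and without LINC00665 2, Vector 1 or Vector 3, MLXIPL was. MLXIPL entered those tests through the LINC00665 label alone, which fixes its direction. MGA, a repressor that also pairs with MAX, had 34.7, 21.3 and 32.5 CPM in the libraries labelled LINC00665, against 70.5, 60 and 68.6 CPM in those labelled Vector (log2 fold change -1.17, SE 0.20, edgeR adjusted p = 0.0012). MLXIP, which encodes MondoA, had 89.7, 73.4 and 96 CPM in the libraries labelled LINC00665, against 62.3, 80.2 and 55.5 CPM in those labelled Vector. Its labels overlapped and it was not called (log2 fold change 0.39, SE 0.18, edgeR adjusted p = 0.097), except when Vector 2 was left out. MLXIPL, which encodes ChREBP, summed to 86 counts over the libraries labelled LINC00665 and to 3 over those labelled Vector. Scaled to total counts, the ratio was 25.4 (95% counting interval 8.42 to 126), and MLXIPL was not in the main test. TXNIP, the best known target of MondoA and MLX, had 80.9, 92.9 and 62.8 CPM in the libraries labelled LINC00665, against 0.28, 0.222 and 0.0517 CPM in those labelled Vector. It passed the filter through the LINC00665 label alone, which fixes its direction. ARRDC4, its paralog and a further MondoA target, was just called (log2 fold change 0.82, SE 0.32, edgeR adjusted p = 0.049) with overlapping labels, and was lost without LINC00665 1, LINC00665 2, Vector 1 or Vector 3.

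The 5 tested genes whose pattern over the 6 libraries was closest to that of MYC, by the root mean square difference of centred log2 CPM, were KLF11 (0.0594), FAM3C (0.069), TMEM171 (0.0793), ULBP1 (0.0893) and ZFP36L2 (0.0929). KLF11 had 62.9, 72.3 and 59.1 CPM in the libraries labelled LINC00665, against 16.2, 13 and 21.5 CPM in those labelled Vector. All 5 shared with MYC a log2 fold change between 1.93 and 2.07 and their highest Vector level in Vector 3, and the likeness is a description over 6 libraries that split by label.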

How the data were processed

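The authors deposited, per the file headers, an expected count for each gene in each library without normalisation; 88.33 to 89.37% of these values were whole numbers as written. FPKM, which the authors scaled for gene length and depth, stand beside them, per the file headers. HISAT2 2.0.4 and hg38 are named in the submitters' processing notes without a role. The counter, the annotation and whether strand was used were not stated in the sources used here. Groups and replicate numbers came from the titles.

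Expected counts were rounded, filtered with filterByExpr, TMM-scaled and tested with edgeR 4.0.16 in R 4.3.3 (glmQLFit, glmQLFTest, no covariate), with Benjamini-Hochberg adjustment over 13552 genes and no fold minimum. The SE is the fold change over the root of F. The procedure was run on simulated data in which far fewer genes changed than were called here. That run therefore does not gauge its error rate for this contrast. Intervals for 1 to 3 counts are exact binomial, and intervals and floors (3 counts over a group) cover counting error only. Exact permutation tests were two-sided. The edgeR p-values set the difference between labels against the spread among libraries within each label. They do not separate line from plasmid.

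Members and lists were chosen with earlier results of these data known. By rule, the genes named are the members, the 4 called genes with the smallest p of each list, every gene of lists of 3 or fewer, and the 5 genes most like MYC. Outside it, SHMT2, TFAP4, HK2, CDKN1A, CDKN1B, THBS1, ZBTB17, FBXW7, SIN3B and HDAC2 were named after their values were seen. DESeq2 1.42.0 and limma 3.58.1 were alternatives. Libraries of 1 label differed beyond sampling noise (chi-square per degree of freedom 10.2 to 120). Some genes of the lists are counted but not reported here by name.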

Additional observations from a re-analysis of the deposited data

How the results depend on the processing

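All 6 called members kept their call and direction under each of 17 alternatives, and of 153 recomputed member fold changes 151 kept direction and side of the threshold; the exceptions, MXI1 without Vector 2 and MLX without Vector 3, gave the members higher a range of 4 to 5 when each library was left out, while 2 stayed lower. With each library left out in turn, the mean of MYC over the repressor total ranged from 3.98 to 4.53 under the LINC00665 label. Under the Vector label that mean ranged from 0.976 to 1.83. Total-count scaling moved the median log2 fold change of all genes to -0.13, with 4174 of 13552 genes higher and 4770 lower. It gave 3 MYC-activated targets higher and 16 lower, 1 coactivator higher and 1 MondoA target higher. The replicate numbers did not pair the libraries (same-number r = 0.152, -0.132 and -0.154), and of the same-numbered libraries only LINC00665 1 and Vector 1 correlated best with each other. With the replicate block 4419 genes were higher and 3505 lower, and 8 MYC-activated targets were lower.

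Where calls also needed an absolute log2 fold change of 1 or more, 3535 of 13552 genes were higher (26.1%) and 2156 lower (15.9%). The lists then gave 1 coactivator higher and 3 lower, 2 SIN3 partners lower, and 1 turnover gene higher and 2 lower. They also gave 0 mRNA regulators higher and 1 lower, 4 activated targets lower and 1 MondoA target higher. At an adjusted p of 0.01, 1 coactivator was higher, 2 mRNA regulators lower, 7 activated targets lower and 1 MondoA target higher. Of all 13552 genes, 3875 were higher and 2899 lower at that threshold. FPKM with either pseudocount gave 1 coactivator and 1 MondoA target higher, beside 4257 (pseudocount 1) and 4234 (pseudocount 0.1) of 13552 genes. With no filter 1 parallel factor, MLXIPL (3 counts under the Vector label), was higher, beside 5133 of 16961 genes. With 1 CPM in both groups 1 MondoA target was higher, beside 3229 of 11285 genes. Leaving out single libraries gave 0 to 2 parallel factors, 1 to 2 coactivators, 0 to 1 SIN3 partners and 1 to 2 MondoA targets higher. The same runs gave 3 to 7 activated targets higher and 7 to 16 lower. Over all genes they gave 4142 to 5033 higher and 3275 to 4225 lower. Where MLXIPL was among the parallel factors in these runs, it was tested through the LINC00665 label alone. The cause of these moves was not tested. Depth limits MYCN, with 13 counts in all, which was not tested, and MYCL under the Vector label, where counting error gave a coefficient of variation of 20.0%.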
